A study of Mus musculus with 24 samples.

Results

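The effect of the Omomyc cargo after 3 h was read by setting T11 cells given the fusion FPP-1746-Omomyc against T11 cells given the carrier FPP-1746 alone. T11 is a mouse mammary tumour cell line of the claudin-low type, derived from a tumour that lacked p53, and the labels say that the line used here carries a luciferase gene. FPP-1746 is a peptide that enters cells, used as the carrier, and Omomyc is an altered form of the MYC dimerisation domain that pairs with MYC and with its partner MAX. The series has 24 samples in 8 groups of 3 biological replicates: PBS, Omomyc alone, FPP-1746 alone and the fusion, each for 3 h and for 6 h. Both peptide groups compared here, of 3 samples each, received 5 µM for 3 h on the same cells, so that the groups differ, per the labels, in whether Omomyc was attached to the carrier. The deposited table holds 1 averaged column per group in FPKM, fragment numbers divided by transcript length and library size. No spread between replicates can be computed from averages, so no test was possible, every difference below has no replicate check, and none is given a p-value. Each value is the log2 ratio of FPKM + 1, fusion over carrier, for the 10262 of 23235 genes whose mean over the 8 columns was at least 1 FPKM. A gene is called higher or lower here when that ratio was at least 2-fold, a log2 ratio of 1 or more in size.

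MYC and MAX bind DNA as a pair, at a short palindrome called the E-box, and activate genes for ribosome production, metabolism and cell division. MXD proteins, MNT and MXI1 compete for MAX and repress those genes, and MYC also lowers the transcription of growth-arrest genes. Omomyc enters this network as a MAX-bound or self-paired occupant of the E-box with no activation domain. Claudin-low mammary tumours have mesenchymal features and little of the keratins, claudins and adhesion molecules of luminal cells.

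The FPKM of the 8 columns summed to between 445657 and 594951. The fusion at 3 h had the highest sum and FPP-1746 at 3 h was at 494461, so the scale of the pair differs somewhat. Upper quartile FPKM over the tested genes were closer, at 39.1 and 38.3. From the spacing of low values, 1 FPKM of a 2000-base transcript stood for roughly 66.0 fragments in the fusion column and 86.5 in the carrier column, a rough estimate because each column averages 3 libraries. All 9 claudin-low markers were tested, and Cldn3, Epcam, Krt18 and Krt5 were at 0 in every column. The 12 luminal and epithelial markers together summed to 2.12 to 7.19 FPKM over the columns and endothelial markers to at most 0.182 FPKM. The 1 luminal marker tested, the transcription factor gene Gata3, was at 1.72 FPKM in the carrier and 6.58 in the fusion at 3 h (log2 ratio 1.48, or 0.78 with a pseudocount of 5 in place of 1). Of 8 macrophage markers 2 were tested. The other 6, among them Ptprc, Csf1r and Itgam, were below 0.5 FPKM in every column, and Emr1 was at 0. The list summed to 11.8 FPKM in the carrier and 81.0 FPKM in the fusion at 3 h. Nearly all of that was Cd14, a co-receptor for bacterial lipopolysaccharide, at 10.2 and 77.4 FPKM. The table gives 1841 of the tested genes a locus shared with a neighbour, so that their reads may be mixed. Among genes named below these include Plk3, Cebpd, Gadd45a, Ddit3, Cxcl10, Dkc1, Rrp8, Tagln, Mat2a, Msrb3, Jrk, Bhlhe40, Cry2, Klf9, Slc6a9, Slc30a1, B2m, Txnip, Rbm12, Ramp3 and the ribosomal protein and Snhg genes. Erbb2, Gadd45gip1, Ikbkg and Thumpd3 also have a shared locus. In bulk RNA a change per cell and a change in the number of cells of a type cannot be told apart.

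At least 2-fold differences were found in 9.87% of the tested genes. In the fusion 601 genes were higher (5.86%) and 412 were lower (4.01%). Records of small RNAs, whose short length makes FPKM erratic, made up 37 of the higher and 38 of the lower calls. Without them 564 of 10121 genes were higher (5.57%) and 374 were lower (3.70%), and the gene groups below are read against these shares. The median log2 ratio over all tested genes was -0.0026, with quartiles of -0.36 and 0.36. The same quartiles for FPP-1746 over PBS at 3 h were -0.054 and 0.064, and without records of small RNAs 3 genes passed 2-fold in that comparison (0.0296%). Omomyc without the carrier was at least 2-fold lower than FPP-1746 in 2 such genes (0.0198%) and higher in 0, with no test behind these counts. At 3 h the fusion column therefore stood far from the 3 other columns, which were close to one another.

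**Figure D1:**
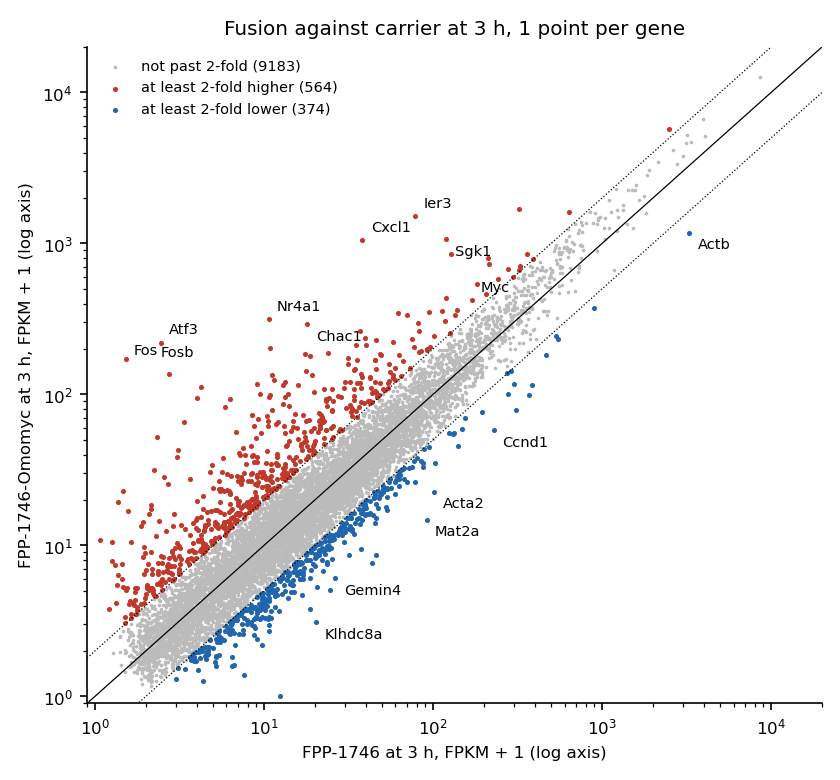
FPKM + 1 of 10121 genes, 1 point per gene with records of small RNAs left out, in the carrier FPP-1746 (x axis) and the fusion (y axis) at 3 h, both on log axes. Dotted lines mark 2-fold, the solid line marks equality, and 564 genes (red) lie above and 374 (blue) below the 2-fold lines, with Fos and Atf3 farthest above and Klhdc8a and Mat2a among the farthest below.

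The largest increases were mostly in immediate-early genes, which cells switch on within minutes of a stimulus without making new protein. Many of these genes encode transcription factors. Fos, an AP-1 subunit gene at chromosome 12, 86814851 to 86818219 (mm9, as all gene positions here), was at 0.432 FPKM in PBS, 0.606 in Omomyc, 0.523 in FPP-1746 and 170 in the fusion. Its log2 ratio over the carrier was 6.81. The 3 columns without the fusion were all near 0.5 FPKM and the fusion stood alone above them. Atf3, a stress-induced factor that pairs with AP-1 proteins, at chromosome 1, 192994176 to 193007212, was at 1.59, 1.21, 1.46 and 219 FPKM in the same order, a log2 ratio of 6.48. Fosb was at 1.83, 1.97, 1.75 and 137 FPKM, a log2 ratio of 5.64. AP-1 genes as a list had 9 of 12 tested members higher, none lower and a median log2 ratio of 1.86, beside -0.0026 over all genes. The ninth of them, Jun (61.7 FPKM in the carrier and 183 in the fusion, 1.55), was named after its values were seen. Maff, a small MAF factor gene, was at 35.9 and 264 FPKM, a log2 ratio of 2.84.

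Of the 8 Egr and Nr4a genes and their co-factors 7 were higher, with a median of 3.28. Nr4a1, which encodes an orphan nuclear receptor, was at 8.11 FPKM in PBS, 11.6 in Omomyc, 9.67 in FPP-1746 and 314 in the fusion (log2 ratio 4.88). Its relative Nr4a2 was at 3.23 FPKM in the carrier and 111 in the fusion (4.73). The third member, Nr4a3, was at 0.077 and 9.82 FPKM (3.33), a gene close to 0 in all columns without the fusion at 3 h. Egr1, a zinc-finger factor gene of the growth-factor response, was at 2.39 and 65.1 FPKM (4.29). In the list of other immediate-early genes 15 of 24 were higher and 1 was lower (median 1.82). Ier3, which encodes a small stress-response protein, was at 68.9 FPKM in PBS, 81.3 in Omomyc, 77.2 in FPP-1746 and 1517 in the fusion, a log2 ratio of 4.28. Csrnp1 (4.22), the polo-like kinase gene Plk3 (3.59) and Zfp36, whose product promotes decay of cytokine mRNAs (3.18), followed it. The 1 lower gene was Srf, the gene of serum response factor, at 193 FPKM in the carrier and 75.3 in the fusion, a log2 ratio of -1.35. SRF is itself a factor at many immediate-early promoters, so the list was not uniform in direction.

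**Figure D2:**
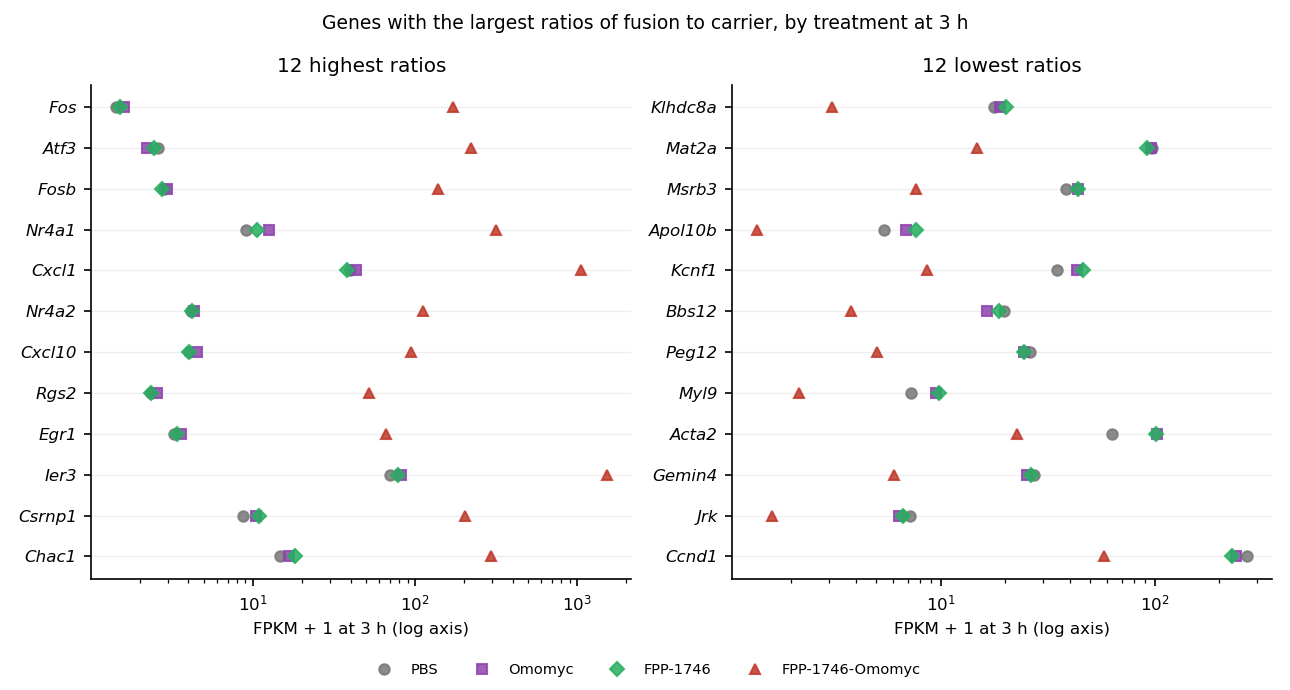
FPKM + 1 (log axis) at 3 h in PBS, Omomyc, FPP-1746 and the fusion for the genes with the 12 highest and the 12 lowest ratios of fusion to carrier, small RNA records and predicted genes left out, 1 averaged column per point and no error available. In each gene the PBS, Omomyc and FPP-1746 points lie together and the fusion point lies apart, as for Fos at 170 FPKM against at most 0.606 and Klhdc8a at 2.11 FPKM against at least 16.8.

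Promoters of the genes with the highest and the next highest ratio are shown, so that the sequence before their start can be set beside the values. They are the 250 bases before the RefSeq start (GRCm38.p6, another build than the table's), printed 5′ to 3′ on the gene's strand, with searched motifs in capitals. Both strands were searched for CACGTG (the E-box), TGACGTCA (cyclic AMP response element), TGATGCAA (the composite CEBP and ATF element), TGACGCAA, TGACTCA (AP-1), TATAAA and the CArG box bound by SRF.
Fos, chr12:85473640-85473889, plus strand: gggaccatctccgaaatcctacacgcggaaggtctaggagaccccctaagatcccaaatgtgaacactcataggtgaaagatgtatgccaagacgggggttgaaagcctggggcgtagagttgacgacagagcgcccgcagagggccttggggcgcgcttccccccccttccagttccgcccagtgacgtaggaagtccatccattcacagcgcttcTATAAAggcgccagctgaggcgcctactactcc
Atf3, chr1:191183334-191183583, minus strand: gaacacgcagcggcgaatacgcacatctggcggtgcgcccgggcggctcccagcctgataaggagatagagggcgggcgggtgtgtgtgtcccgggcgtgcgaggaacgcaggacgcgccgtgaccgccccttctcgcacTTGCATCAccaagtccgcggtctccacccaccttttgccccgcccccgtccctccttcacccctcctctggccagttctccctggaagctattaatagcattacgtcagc
The capitals in Fos are TATAAA, 33 to 28 bases before the start. In Atf3 they are TGATGCAA on the opposite strand, 110 to 103 bases before the start. Among 27025 promoters of this length 13.0% hold TATAAA and 0.818% hold TGATGCAA. A match describes the letters and is no evidence of binding.

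Of 11 dual-specificity phosphatase genes, whose products remove phosphate from MAP kinases, 9 were higher and none lower, with a median log2 ratio of 1.6. Dusp10 was at 7.24 FPKM in PBS, 7.86 in Omomyc, 8.45 in FPP-1746 and 99.3 in the fusion (3.41). Dusp1 was at 10.8, 19.1, 17.7 and 179 FPKM in the same order, which is 3.27 over the carrier and 3.92 over PBS. It is a case where the carrier alone was above PBS, by 0.66. Dusp4 (2.87) and Dusp2 (2.79) completed the leading 4. In the list of Sprouty, Spred, SOCS and related inhibitors of receptor kinases 5 of 15 were higher and 1 was lower (median 0.50). Higher were Spry2 (4.69 and 37.2 FPKM, 2.75), Spry4 (2.27), Socs3 (2.11), Spry1 (2.04) and Socs1 (1.63), and Socs5 was lower at -1.09. Of 10 EGF receptor ligand and receptor genes 4 were tested. Areg, the ligand amphiregulin, was at 2.43 FPKM in PBS, 2.15 in Omomyc, 2.07 in FPP-1746 and 37.6 in the fusion (3.65), and Ereg, epiregulin, was at 4.65 and 29.5 FPKM (2.44). Hbegf was at 86.6 and 166 FPKM (0.93) and the receptor gene Erbb2 at 7.57 and 4.39 FPKM (-0.67), both short of 2-fold.

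The promoters of Dusp1 and Areg are shown because both hold a perfect cyclic AMP response element, an 8-base site of CREB and related factors.
Dusp1, chr17:26508473-26508722, minus strand: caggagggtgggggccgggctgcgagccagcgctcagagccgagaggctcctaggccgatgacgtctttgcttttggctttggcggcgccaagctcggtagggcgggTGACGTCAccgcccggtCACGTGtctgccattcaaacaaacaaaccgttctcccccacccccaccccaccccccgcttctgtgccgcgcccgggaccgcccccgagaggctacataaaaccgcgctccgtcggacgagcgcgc
Areg, chr5:91139349-91139598, plus strand: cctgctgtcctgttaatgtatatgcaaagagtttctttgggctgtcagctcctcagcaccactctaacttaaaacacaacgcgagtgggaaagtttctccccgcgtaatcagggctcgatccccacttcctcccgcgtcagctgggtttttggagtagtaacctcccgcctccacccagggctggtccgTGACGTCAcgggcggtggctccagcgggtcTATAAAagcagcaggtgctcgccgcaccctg
In Dusp1 the capitals are TGACGTCA at 143 to 136 bases and CACGTG at 126 to 121 bases before the start. In Areg they are TGACGTCA at 61 to 54 and TATAAA at 31 to 26 bases before the start. TGACGTCA occurs in 1.62% of all promoters and the E-box CACGTG in 6.05%.

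Within the MYC network both Myc and genes of its antagonists were higher in the fusion than in the carrier. Myc, at chromosome 15, 61816896 to 61821916, was at 161 FPKM in PBS, 166 in Omomyc, 170 in FPP-1746 and 422 in the fusion, a log2 ratio of 1.31 over the carrier. Mxd1, which competes with MYC for MAX, was at 0.729, 0.812, 0.644 and 9.58 FPKM (2.69). Mnt (7.36 and 25.9 FPKM, 1.69) and Mxi1 (8.09 and 24.3 FPKM, 1.47) were the other higher members, and 4 of the 11 tested were higher and none lower. Max, the shared partner, was at 58.6 FPKM in the carrier and 70.4 in the fusion (0.26), and Mxd3 (-0.57) and Mga (-0.56) were below 0. No FPKM difference past 2-fold was seen between Omomyc alone and FPP-1746 alone for any of these genes.

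Genes that MYC activates shifted little. Of 45 tested 35 had a ratio below 0, the median was -0.25, none was higher and 3 were lower. The 3 were Polr1b, a subunit of RNA polymerase I (33.1 and 10.9 FPKM, -1.52), the respiratory assembly factor gene Ndufaf4 (23.3 and 8.41 FPKM, -1.37) and the ribosome biogenesis gene Rrp1b (35.4 and 14.2 FPKM, -1.26). Dkc1, a pseudouridine synthase gene, was at 134 and 71.1 FPKM (-0.91). The genes that MYC represses differed more, with 10 of 16 higher, 1 lower and a median of 1.99. Several of the higher ones are counted in other lists too, so the lists are not independent. Klf4 and Klf6 are also in that of immediate-early genes, Cdkn1a and Gadd45a in that of p53 targets and Ndrg1 in that of hypoxia. Cebpd, a growth-arrest transcription factor gene, was at 16.6 and 183 FPKM (3.39). Klf4 was at 115 FPKM in the fusion (3.16), the p21 gene Cdkn1a at 2.63 and 26.5 FPKM (2.92) and Gadd45a at 12.4 and 95.1 FPKM (2.84). Thbs1, the thrombospondin gene, was the lower one at -1.27. It was at 551 FPKM in PBS, 816 in Omomyc, 892 in FPP-1746 and 370 in the fusion, which is only -0.57 over PBS. Krüppel-like factor genes, zinc-finger factors of differentiation and quiescence, had 8 of 11 members higher and none lower (median 1.57). Beside Klf4 they were led by Klf11 (1.15 and 16.4 FPKM, 3.02), Klf9 (2.55) and Klf6 (1.91).

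The integrated stress response is the pathway in which kinases that sense amino acid shortage, misfolded protein or other stress slow translation and favour the factor ATF4. Of 16 of its genes 9 were higher and none lower, with a median of 1.45. Chac1, which encodes an enzyme that degrades glutathione, was at 13.6 FPKM in PBS, 15.8 in Omomyc, 17.1 in FPP-1746 and 292 in the fusion (4.02). Ppp1r15a, whose product restores translation by reversing the phosphorylation of eIF2α, was at 16.7 and 143 FPKM (3.02). Cebpb (2.39) and Ddit3, the gene of the CHOP factor (21.6 and 107 FPKM, 2.26), followed. Atf4 itself, named after its values were seen, was at 278 and 676 FPKM (1.28). The metabolic arm downstream of ATF4 moved less at this time. Of 13 genes of serine, asparagine and proline synthesis none passed 2-fold, 12 were above 0 and the median was 0.51, with Got1 (0.79), Mthfd2 (0.71), Gpt2 (0.69) and Psph (0.66) the largest. Among 11 amino acid transporter genes 2 were higher, Slc38a2, a neutral amino acid carrier (60.8 and 346 FPKM, 2.49), and Slc6a9 (24.7 and 51.0 FPKM, 1.02, but 0.94 under quantile normalisation), and all 11 were above 0. None of 20 cytosolic aminoacyl-tRNA synthetase genes passed 2-fold, with a median of 0.029 that was -0.15 under quantile normalisation. Their largest differences were those of Sars (0.51) and Dars (-0.46).

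The promoter of Chac1 is shown because it carries both stress elements searched for.
Chac1, chr2:119350992-119351241, plus strand: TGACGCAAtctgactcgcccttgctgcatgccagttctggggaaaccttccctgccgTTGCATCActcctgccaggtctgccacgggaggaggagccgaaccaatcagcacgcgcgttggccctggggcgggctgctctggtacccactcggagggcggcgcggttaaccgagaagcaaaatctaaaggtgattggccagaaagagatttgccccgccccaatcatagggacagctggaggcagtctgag
The capitals are TGACGCAA at 250 to 243 bases and TGATGCAA, on the opposite strand, at 193 to 186 bases before the start. TGACGCAA was found in 0.451% of all promoters, and the match here starts at the first base printed.

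Sestrins, the REDD1 gene Ddit4 and the folliculin complex, which restrain the growth kinase mTORC1, had 6 of 14 tested genes higher and none lower (median 0.74). Sesn2 was at 5.85 FPKM in the carrier and 55.2 in the fusion (3.04), Ddit4 at 18.1 and 133 FPKM (2.81), Flcn at 9.60 and 61.0 FPKM (2.55) and Fnip1 at 4.45 and 22.8 FPKM (2.13). Protein-folding genes were mixed. In the unfolded protein response of the endoplasmic reticulum 2 of 22 genes were higher, Herpud1 (30.6 and 173 FPKM, 2.46) and the chaperone gene Dnajb9 (2.43), while the stress sensor gene Ern1 was at 0.83 and the list median at 0.42. Heat-shock chaperone genes had 4 of 17 higher and none lower (median 0.32): Dnajb4 (1.96), Bag3 (1.65), Hspa4l (1.32) and Dnajb1 (1.12, or 0.95 under quantile normalisation). Of 20 NRF2 target genes of the oxidative stress defence 4 were higher (median 0.14). Osgin1 was at 6.23 and 39.0 FPKM (2.47), the autophagy receptor gene Sqstm1 at 324 and 1702 FPKM (2.39), the haem oxygenase gene Hmox1 at 112 and 358 FPKM (1.67) and Nfe2l2, which encodes NRF2, at 41.6 and 86.9 FPKM (1.04, or 0.98 with a pseudocount of 5 and 0.93 under quantile normalisation). Among 11 metallothionein and zinc transporter genes the metal-binding Mt2 (18.8 and 103 FPKM, 2.39) and Mt1 (210 and 805 FPKM, 1.94) were higher and none was lower (median 0.082). The zinc exporter gene Slc30a1 was at 0.89.

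**Figure D3:**
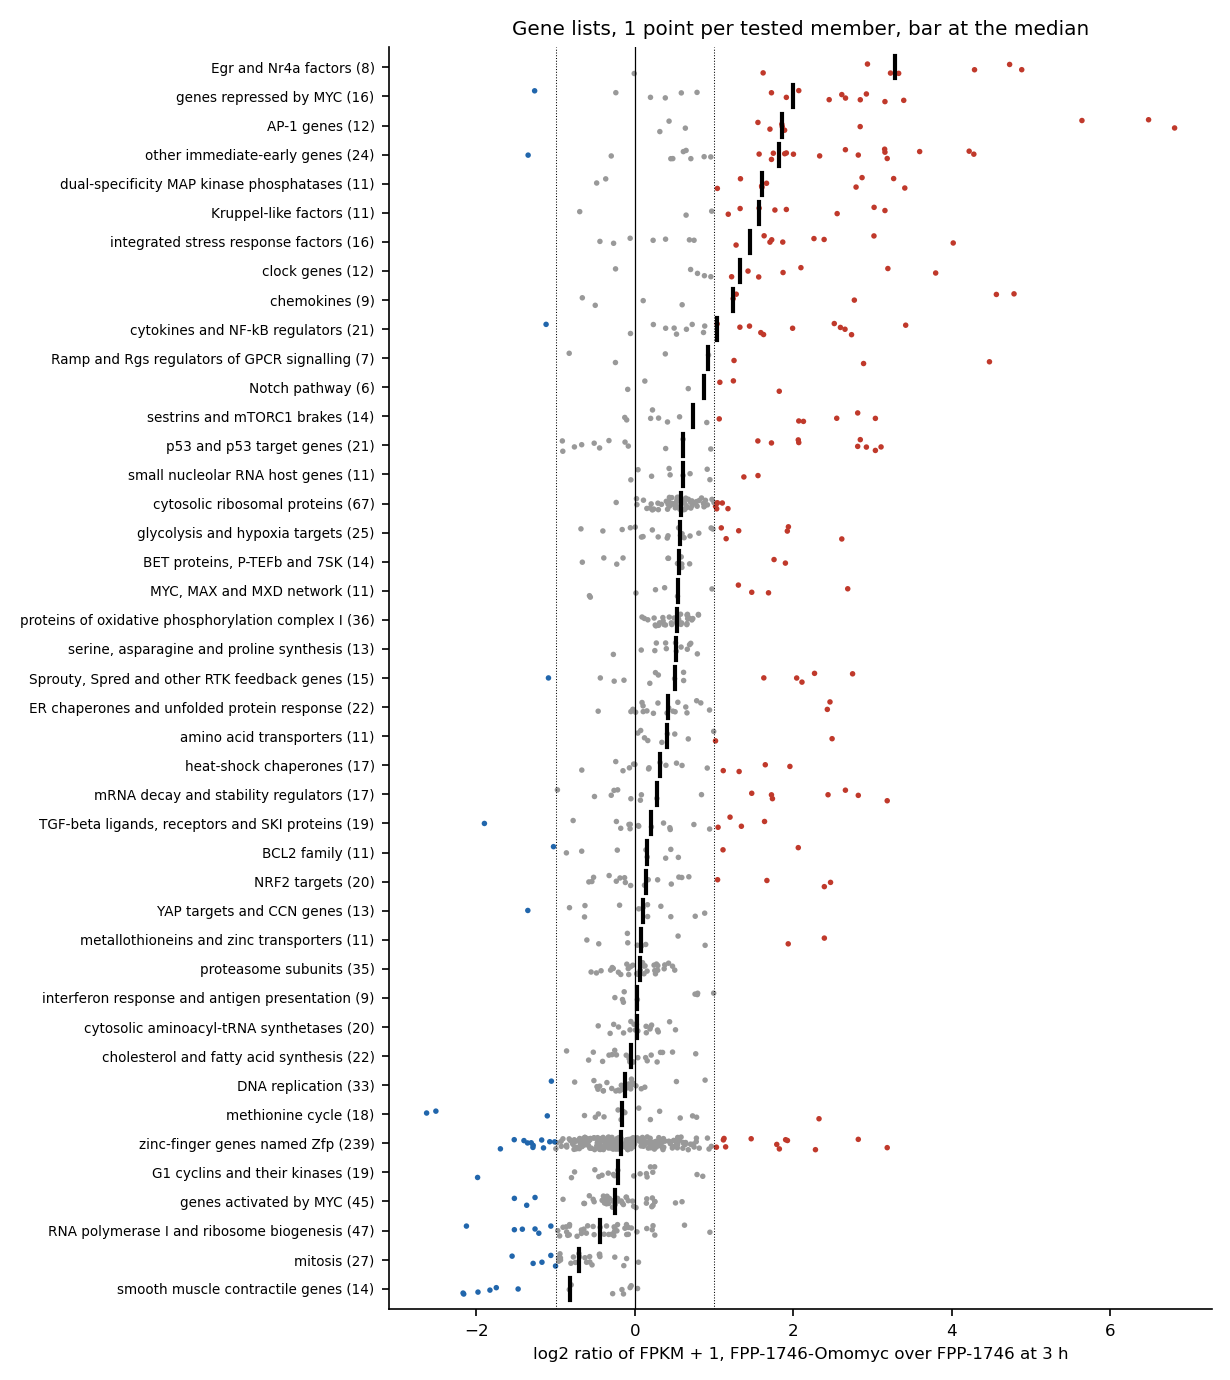
Log2 ratio of FPKM + 1, fusion over FPP-1746 at 3 h, for the tested members of gene lists (number tested in brackets), 1 point per gene, with points past 2-fold in red or blue, a bar at each list's median and dotted lines at 2-fold. Medians run from 3.28 for Egr and Nr4a factors to -0.82 for smooth muscle contractile genes, and ribosomal protein and complex I genes form narrow groups above 0.

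Inflammatory genes were among the largest differences. The neutrophil chemokine gene Cxcl1, at chromosome 5, 91320271 to 91322141, was at 38.9 FPKM in PBS, 42.0 in Omomyc, 37.3 in FPP-1746 and 1054 in the fusion (4.79). Cxcl10, a chemokine gene of the interferon response, was at 3.02 and 94.0 FPKM (4.56). Together with Ccl2 (9.48 and 70.5 FPKM, 2.77), Ccl7 (1.28, or 0.57 with a pseudocount of 5) and Cxcl5 (1.24) they made 5 higher chemokine genes of 9, with none lower and a median of 1.24. Of 21 cytokine and NF-κB genes 11 were higher and 1 was lower (median 1.04). The cytokine gene Il6 was at 0.580 and 15.9 FPKM (3.42), the prostaglandin synthase gene Ptgs2 at 127 and 852 FPKM (2.73), Il11 at 0.261 and 6.93 FPKM (2.65) and the NF-κB inhibitor gene Nfkbia at 38.4 and 237 FPKM (2.59). Ptgs2 was at 68.9 FPKM in PBS, so its carrier value was itself 0.87 above PBS. The lower gene was the macrophage growth factor gene Csf1 at -1.12. None of the 9 tested interferon and antigen presentation genes passed 2-fold, although B2m (627 and 1250 FPKM, 0.99) came close to it, and the list median of 0.031 was -0.13 without shared loci. The part of the higher Cd14 in these inflammatory values was not tested.

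Of 21 p53 and p53-target genes 9 were higher and none lower, with a median of 0.61. Trp53, the p53 gene itself, was at 45.9 FPKM in PBS, 48.1 in Omomyc, 43.6 in FPP-1746 and 39.9 in the fusion (-0.12), and a gene-level value cannot show which exons the reads came from. Eda2r, a death-domain receptor gene, was at 1.35 FPKM in PBS and 17.4 in the fusion (3.11 over the carrier). Sesn2, Cdkn1a and Gadd45a, already described, were next, and all 3 also belong to other lists above. Gadd45b was at 44.6 and 120 FPKM (1.41), Gadd45g at 0.51 and Gadd45gip1, a differently functioning mitochondrial gene despite its name, at -0.42. In the BCL2 family of apoptosis regulators 2 of 11 were higher and 1 was lower (median 0.15). Bbc3, the pro-apoptotic PUMA gene, was at 4.53 and 22.1 FPKM (2.06), the survival gene Mcl1 at 91.4 and 199 FPKM (1.11, or 0.90 under quantile normalisation), Bok at 87.3 and 42.3 FPKM (-1.03, or -0.96 with a pseudocount of 5) and Bcl2 at 2.35 and 0.840 FPKM (-0.86).

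Of the cell-cycle lists, that of mitosis was shifted downwards the most. Ccnd1, the cyclin D1 gene at chromosome 7, 152115836 to 152125830, was at 270 FPKM in PBS, 240 in Omomyc, 228 in FPP-1746 and 56.9 in the fusion (-1.99). It was the only 1 of 19 genes of the G1 cyclins and their kinases past 2-fold (median -0.21). Cdkn2a was at 535 and 970 FPKM (0.86), Ccne2 at -0.80 and the p27 gene Cdkn1b at 0.78. Among 27 mitosis genes 26 were below 0, 5 were lower, none was higher and the median was -0.71. The lower ones were Cenpf (6.54 and 1.58 FPKM, -1.55), the proliferation marker gene Mki67 (21.3 and 8.16 FPKM, -1.28), the kinase genes Plk1 (52.7 and 22.8 FPKM, -1.17) and Ttk (-1.06), and the cyclin A2 gene Ccna2 (275 and 137 FPKM, -1.0). With a pseudocount of 5 in place of 1, Cenpf (-0.81), Ttk (-0.83) and, narrowly, Mki67 fell short of 2-fold. Of 33 DNA replication genes 1 was lower, Mcm10 (23.5 and 10.8 FPKM, -1.05, and -0.85 with a pseudocount of 5), and the median was -0.12. In this list 28 genes were below 0, among them Rfc5 at -0.76, and 5 were above 0, among them Cdt1 at 0.89 and Pcna at 0.52.

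Ribosome assembly factors and ribosomal proteins differed in opposite directions. Of 47 RNA polymerase I and ribosome biogenesis genes 6 were lower, none was higher, 40 were below 0 and the median was -0.44. The lowest was Gemin4 (25.5 and 5.06 FPKM, -2.13). It is counted in the list, as is Gemin5, although both belong to the SMN complex, which builds spliceosomal particles and not ribosomes. Next came Polr1b (-1.52), the ribosomal RNA methyltransferase gene Rrp8 (46.2 and 16.6 FPKM, -1.42) and Rrp1b (-1.26). Polr1b and Rrp1b are also counted as lower among the genes that MYC activates, so that list and this one are not independent. Of 67 ribosomal protein genes 66 were above 0, 6 were higher, none was lower and the median was 0.58. Rps21 was at 328 and 706 FPKM (1.10), while Rpl35 was at 6.21 and 15.3 FPKM (1.17) and Rpl5 at 1.94 and 5.02 FPKM (1.03), low values for genes that have many near-identical copies able to share their reads. Rps21 was at 0.77 under quantile normalisation, and Rpl35 (0.86) and Rpl5 (0.53) fell short with a pseudocount of 5. All 36 complex I genes of the respiratory chain were above 0 and none passed 2-fold (median 0.53), with Ndufa4 at 910 and 1588 FPKM (0.80) and Ndufa1 at 124 and 217 FPKM (0.80). Proteasome genes, also abundant, had a median of 0.068, which was -0.15 under quantile normalisation.

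Transcript length moved with these list medians. Over 550 genes whose longest annotated transcript was under 1000 bases the median log2 ratio was 0.37, and over 3444 genes of 4000 bases or more it was -0.073. For FPP-1746 over PBS the same medians were 0.0 and 0.025, and for the fusion over the carrier at 6 h they were -0.22 and 0.12. The median transcript was 954 bases in the ribosomal protein list and 944.5 bases in the complex I list, against 1581 bases in the proteasome list. At 6 h the ribosomal protein and complex I medians were -0.20 and -0.28. The part of length in the list medians was not tested further, and these lengths come from GENCODE M21 by gene symbol. Host genes of small nucleolar RNAs had 2 of 11 higher, Snhg12 (36.4 and 109 FPKM, 1.55) and Snhg1 (117 and 306 FPKM, 1.38), and their spans overlap the small RNAs they contain.

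Of 14 smooth muscle contractile genes 6 were lower, none was higher and the median was -0.82. Acta2 and Myl9 were among the 12 lowest named genes. Acta2, the smooth muscle actin gene at chromosome 19, 34315581 to 34329826, was at 62.2 FPKM in PBS, 101 in Omomyc, 101 in FPP-1746 and 21.7 in the fusion, which is -2.16 over the carrier and -1.48 over PBS. The myosin light chain gene Myl9 was at 6.29, 8.52, 8.78 and 1.18 FPKM (-2.17 over the carrier), Actg2 at 6.85, 9.09, 9.78 and 1.73 FPKM (-1.98) and Tagln, the gene of transgelin, at 3.12, 4.82, 5.48 and 0.823 FPKM (-1.83). With a pseudocount of 5 the low gene Tagln was at -0.85, short of 2-fold. In each of the 4 genes PBS lay below both single peptides and the fusion lay below PBS. The carrier was above PBS across the list, with a median of 0.20, and the fusion over PBS had a median of -0.66. Not all members differed, as Tagln2 (0.034), Mylk (-0.046) and Tpm2 (-0.060) were close to the carrier. Actb, the cytoplasmic actin gene often used for normalisation, was at 2634 FPKM in PBS, 3216 in Omomyc, 3273 in FPP-1746 and 1176 in the fusion (-1.48). Actin genes are close paralogs whose reads may be divided among them.

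The calponin gene Cnn2, named after its values were seen, was at 386 FPKM in the carrier and 114 in the fusion (-1.75). Its promoter and that of Myl9 are shown because each holds a CArG box, the site of SRF. Promoters of the other contractile genes are not shown, and the part of SRF in these values was not tested.
Myl9, chr2:156775214-156775463, plus strand: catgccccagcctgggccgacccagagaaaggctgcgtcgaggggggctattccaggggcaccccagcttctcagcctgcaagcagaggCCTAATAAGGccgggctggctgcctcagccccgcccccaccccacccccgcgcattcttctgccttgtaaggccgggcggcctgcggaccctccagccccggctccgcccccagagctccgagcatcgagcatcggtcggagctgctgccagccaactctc
Cnn2, chr10:79988350-79988599, plus strand: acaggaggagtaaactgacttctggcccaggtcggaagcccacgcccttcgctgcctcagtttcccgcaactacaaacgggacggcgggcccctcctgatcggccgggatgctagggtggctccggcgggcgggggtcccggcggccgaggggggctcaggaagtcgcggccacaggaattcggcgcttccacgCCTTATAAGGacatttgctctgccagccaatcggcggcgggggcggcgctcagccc
The capitals are the CArG box, at 161 to 152 bases before the start in Myl9 and at 56 to 47 bases in Cnn2. The CArG box was found in 1.40% of all promoters.

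Of 19 TGF-β pathway genes 4 were higher (median 0.21). They were the repressors Tgif1 (74.4 and 233 FPKM, 1.64) and Skil (1.34), the ligand gene Tgfb1 (8.02 and 19.7 FPKM, 1.20, or 0.93 with a pseudocount of 5) and the receptor gene Tgfbr1 (1.05). In the list of YAP targets Ankrd1 was lower (464 and 181 FPKM, -1.35). Ctgf was at 58.5 FPKM in PBS, 81.6 in Omomyc, 109 in FPP-1746 and 61.3 in the fusion, so its ratio of -0.83 over the carrier became 0.07 over PBS. Of 16 mesenchymal factor genes 3 were higher and none lower (median 0.41). Twist1, a driver of the mesenchymal state, was at 22.3 and 89.9 FPKM (1.97), Twist2 at 20.0 and 55.8 FPKM (1.44) and Foxc2 at 32.1 and 77.6 FPKM (1.25). Of the 9 claudin-low markers Twist1 and Twist2 were the 2 higher ones and none was lower (median 0.48). Snai2 (0.94) and the hyaluronan receptor gene Cd44 (145 and 255 FPKM, 0.81) were short of 2-fold.

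Clock genes had 7 of 12 members higher and none lower, with a median of 1.32. The period gene Per1 was at 1.37 FPKM in PBS, 2.25 in Omomyc, 2.09 in FPP-1746 and 41.9 in the fusion (3.80). Nr1d1, the clock repressor REV-ERBα, was at 12.3 and 120 FPKM (3.19), Bhlhe40 at 24.4 and 108 FPKM (2.1) and Cry2 at 3.58 and 15.7 FPKM (1.87). Of the activator genes of the clock Arntl was at 9.47 and 27.2 FPKM (1.43) and Clock at 21.6 and 18.1 FPKM (-0.24). In the list of regulators of G-protein-coupled receptors 3 of 7 were higher (median 0.93). Rgs2, which turns off Gq signalling, was at 1.34 and 51.0 FPKM (4.47), the receptor partner gene Ramp3 at 0.932 and 13.3 FPKM (2.89) and Rgs3 at 1.18 and 4.19 FPKM (1.25). In the Notch pathway the target genes Hey1 (5.28 and 21.2 FPKM, 1.82) and Hes1 (1.07) and the ligand gene Jag1 (1.24) were higher among 6 tested. With a pseudocount of 5 Rgs3 (0.57), Hes1 (0.67) and Jag1 (0.88) fell short of 2-fold. The transcription elongation genes Brd2 (93.4 and 351 FPKM, 1.90), of the BET family, and Hexim1, an inhibitor of P-TEFb (12.4 and 44.4 FPKM, 1.76), were higher of 14 tested, while Brd3 was at -0.66. Of 17 genes of mRNA decay 7 were higher and none lower (median 0.28), among them Zfp36, Zfp36l1 (7.77 and 60.9 FPKM, 2.82), Btg1 (2.66) and Tob1 (2.44).

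In the list of the methionine cycle and polyamines 3 genes were lower and 1 was higher. Mat2a makes S-adenosylmethionine, the methyl donor of the cell, and was at 95.9 FPKM in PBS, 94.9 in Omomyc, 90.8 in FPP-1746 and 13.8 in the fusion (-2.63). Msrb3, which repairs oxidised methionine, was at 37.4, 42.8, 42.8 and 6.68 FPKM (-2.51), and Mtrr, which reactivates methionine synthase, was at 11.5 and 4.79 FPKM (-1.11, and -0.75 with a pseudocount of 5). Sat1, which breaks down polyamines made from S-adenosylmethionine, was higher, at 229 FPKM in the fusion (2.32), and the other 14 of 18 methionine and polyamine genes did not pass 2-fold (median -0.16). Hypoxia and glycolysis genes had 6 of 25 higher and none lower (median 0.57), led by Ndrg1 (34.0 and 213 FPKM, 2.61), Ankrd37 (1.94), the angiogenic factor gene Vegfa (57.3 and 220 FPKM, 1.92) and the glucose transporter gene Slc2a1 (134 and 335 FPKM, 1.31). No gene of cholesterol and fatty acid synthesis passed 2-fold among 22 (median -0.047). Txnip, a glucose-responsive inhibitor of thioredoxin, was at 0.568 and 1.35 FPKM (0.59), and of 4 tested genes of its family the arrestin-domain gene Arrdc3 was higher (5.95 and 13.7 FPKM, 1.08). Arrdc3 fell short of 2-fold with a pseudocount of 5 (0.77) and against the mean of the 3 columns without the fusion (0.93).

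The remaining lowest genes belong to no common list. The predicted gene LOC100302567, described with the small RNA records, had the lowest ratio outside those records, and predicted genes are left out of the ranking that follows. Klhdc8a, a kelch-domain gene at chromosome 1, 134195203 to 134203934, came first, at 16.8 FPKM in PBS, 17.9 in Omomyc, 19.3 in FPP-1746 and 2.11 in the fusion (-2.71). Kcnf1, a potassium channel subunit gene, was at 33.9, 42.4, 45.1 and 7.60 FPKM (-2.42), and the apolipoprotein L gene Apol10b at 4.41, 5.88, 6.63 and 0.383 FPKM (-2.46). Bbs12, a cilium chaperonin gene, was at 17.7 and 2.82 FPKM in carrier and fusion (-2.29), the imprinted gene Peg12 at 23.6 and 4.06 FPKM (-2.28) and Jrk at 5.66 and 0.628 FPKM (-2.03, and -0.92 with a pseudocount of 5). The lower genes were less extreme than the higher ones, with the 12 lowest between -2.71 and -1.99 and the 12 highest between 4.02 and 6.81. Just inside the 2-fold rule were Uap1, Lemd3 and Arhgap18 on the higher side and Plekha8, Ikbkg and Mrps18b on the lower side. Just outside were Rpl13, Ralgds and Saa3 and, below, Thumpd3, Dhx37 and Nfic. Their log2 ratios were all 1.0 or -1.0 when rounded to 1 decimal.

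The same comparison at 6 h used other samples for both groups, and 678 genes were higher (6.70%) and 293 lower (2.89%) without records of small RNAs. Of the 564 genes higher at 3 h 327 were also higher at 6 h, 58.0% of the 3 h set and 48.2% of the 6 h set, and 545 had a ratio above 0. Their median log2 ratio was 1.46 at 3 h and 1.10 at 6 h. Of the 374 lower genes 49 were also lower at 6 h, 13.1% of the 3 h set and 16.7% of the 6 h set, and 117 had a ratio above 0. Their median was -1.21 at 3 h and -0.31 at 6 h. Most genes lower at 3 h were thus short of 2-fold at 6 h, while genes higher at 3 h mostly stayed above it. Differences between the times were not tested.

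Fos stood at 27.5 FPKM in the fusion at 6 h, against 0.340 in its carrier (4.41), and Atf3 at 52.5 against 1.28 FPKM (4.55). Genes higher at 3 h and short of 2-fold at 6 h included the phosphatase gene Dusp2 (2.79 and 0.17 at the 2 times), the cyclin G2 gene Ccng2 (2.66 and 0.20) and Nfkbia (2.59 and 0.49). Pnrc1 (3.90 and 1.35) and the death effector gene Dedd2 (3.47 and 1.01) had smaller ratios at 6 h but still passed 2-fold. By contrast Trib3, which encodes a pseudokinase and is an ATF4 target, was at 10.9 and 37.8 FPKM at 3 h and at 9.05 and 165 FPKM at 6 h (1.70 and 4.04). Myc was at 1.31 and 2.03, Slc6a9 at 1.02 and 2.80 and Ramp3 at 2.89 and 4.36. The lower genes Gemin4 (-2.13 and 0.24), Jrk (-2.03 and 0.32), the methyltransferase gene Mettl4 (-1.64, or -0.91 with a pseudocount of 5, and 0.58) and Rbm12 (-1.49 and 1.00) were at or above the carrier at 6 h. Other lower genes were still past 2-fold at 6 h, among them Klhdc8a (-2.69), Kcnf1 (-2.17), Msrb3 (-2.04), Apol10b (-1.80), Ccnd1 (-1.52) and Mat2a (-1.44). Of the 14 contractile genes 9 were lower at 6 h, with a median of -1.18. Acta2 was at 143 FPKM in the carrier and 13.5 in the fusion at 6 h (-3.31) and Myl9 at -2.50.

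**Figure D4:**
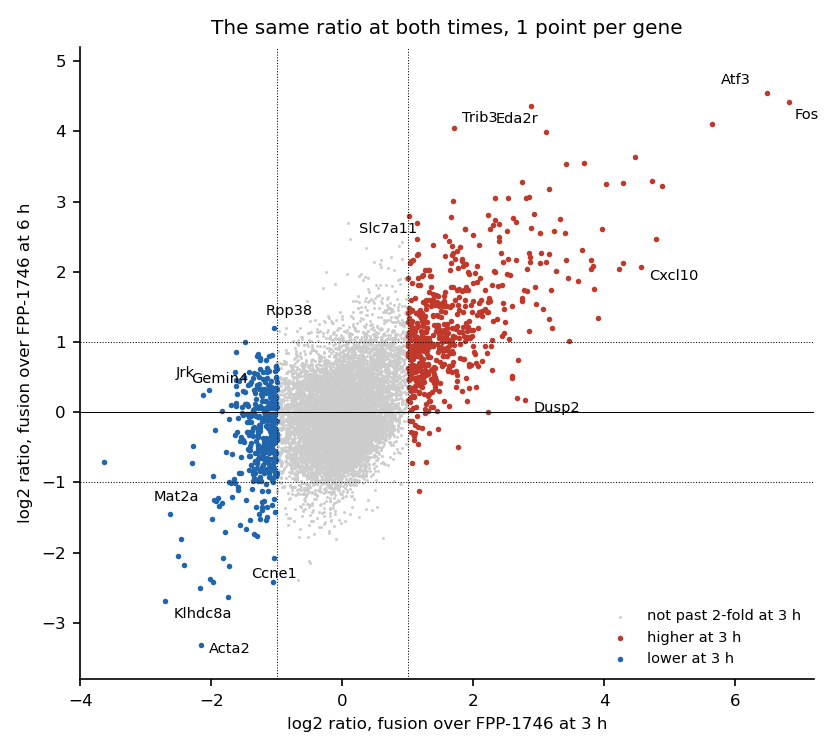
Log2 ratio of FPKM + 1, fusion over FPP-1746, at 3 h (x axis) and 6 h (y axis), 1 point per gene over 10121 genes, with dotted lines at 2-fold. Of the genes higher at 3 h (red) 545 of 564 lie above 0 at 6 h, while 257 of the 374 lower genes (blue) lie below 0 at 6 h and 49 lie below the 2-fold line.

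Among the genes whose symbols begin Zfp and a digit, mostly zinc-finger transcription factors, 147 of 239 tested were below 0 at 3 h, with a median of -0.18 that lies within the quartiles of all genes. At 2-fold 12 were higher and 11 were lower, shares close to the 5.57% and 3.70% over all genes. At 6 h 36 were higher, 2 were lower and the median was 0.51. The highest at 3 h were Zfp36 and Zfp36l1, which are RNA-binding decay factors and not DNA-binding members, followed by Zfp703 (14.3 and 73.4 FPKM, 2.28) and Zfp367 (16.7 and 66.2 FPKM, 1.93). Their median longest transcript was 3544 bases.

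Genes with few exons made up a larger share of both the higher and the lower genes at 3 h than of all tested genes. This was examined after the values were seen. By GENCODE M21, 7.19% of the tested genes with a match have 1 or 2 exons in their longest transcript, against 16.2% of the higher and 17.6% of the lower genes. Among 720 such genes 12.6% were higher and 9.03% lower, and among 4169 genes with over 10 exons 3.48% were higher and 2.45% lower. Examples with 1 exon were Cebpd and Cebpb on the higher side and Kcnf1 and Peg12 on the lower side, and with 2 exons Ier3 and Twist1 against Gemin4, Bbs12 and Jrk. At 6 h 14.2% of the higher and 3.47% of the lower genes had 1 or 2 exons. Of the 117 genes lower at 3 h and above 0 at 6 h, 115 matched and 24.3% of these had 1 or 2 exons, against 8.16% of the 49 genes lower at both times. The median genomic span of genes with a locus of their own was 15734 bases among higher, 17696 among lower and 22018 among all tested genes. The part of exon number or span in the calls was not tested.

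**Figure D5:**
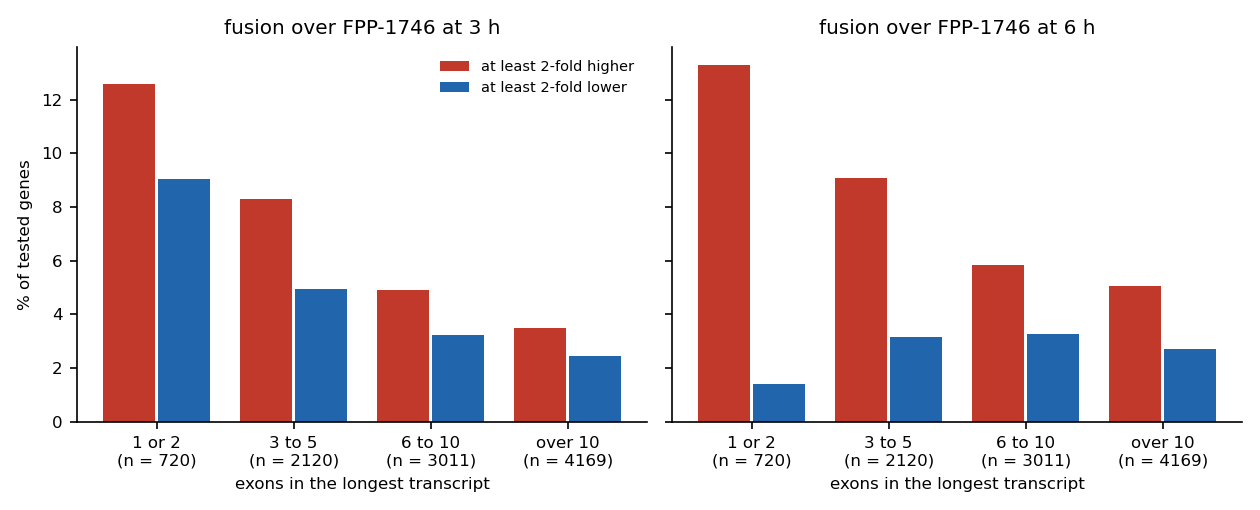
Share of tested genes (% on the y axis, from 0) at least 2-fold higher (red) or lower (blue), fusion over FPP-1746, by the number of exons in the longest GENCODE M21 transcript, at 3 h (left) and 6 h (right), with the number of genes under each pair of bars. At 3 h both shares fall from 12.6% and 9.03% with 1 or 2 exons to 3.48% and 2.45% with over 10, while at 6 h 13.3% of genes with 1 or 2 exons were higher and 1.39% were lower.

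Records of small RNAs could not be read reliably. Of 141 tested 75 passed 2-fold between fusion and carrier. Between FPP-1746 and PBS at 3 h 60 of the 141 passed it. Among the 75, 18 were listed at 0 in FPP-1746 and 32 were listed at 0 in the fusion. Outside these records the genes that differed between carrier and PBS at 3 h were LOC100302567, at 11.5 FPKM in FPP-1746 and listed at 0 in PBS, Snhg9 (1.11 and 3.87 FPKM) and Gm9781 (3.41 and 1.13 FPKM). The table gives each of the 3 a locus shared with another gene, and LOC100302567 was also listed at 0 in the fusion and in Omomyc at 3 h.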

How the data were processed

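RNA was sequenced from T11 cells in 24 samples, 3 per group, and the authors deposited 1 table of FPKM, averaged per group. Tools listed in the submitters' processing notes are STAR 2.1.3, Cufflinks 2.2.1, Cuffnorm 2.2.1 and bcl2fastq 2.17.1.14, with the build mm9. The sources used here give neither settings nor strand use. The treatment tag of 3 samples titled as the 6 h fusion group says 3 h, and the title was followed. Ratios were taken of FPKM + 1 where a gene's mean reached 1 FPKM over the 8 columns, in Python 3.11.15 with pandas 2.3.3. With 1 averaged column per group there was no test.

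Named genes were the 12 highest and 12 lowest ratios outside small RNA, predicted and pseudogene records, up to 4 members of each of 52 lists with the largest ratios (all those past 2-fold where these were 5 or fewer), 8 fixed genes, those past 2-fold between carrier and PBS, those nearest the threshold, and those farthest apart between 3 h and 6 h. Others are marked as named after their values were seen. Members, lists and rules were chosen with earlier results of these data known. The endothelial and adipocyte lists had 0 and 1 tested members (Fabp4, 0.035). Exon numbers and transcript lengths came from GENCODE M21 by symbol, and promoters from RefSeq (GRCm38.p6), where 80.4% of tested genes had a match; motif shares were not compared between gene sets. Values of some list members are not reported here.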

Additional observations from a re-analysis of the deposited data

Results flagged for a closer look

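Outside records of small RNAs 1 gene was at least 2-fold lower at 3 h and higher at 6 h, and 1 was higher at 3 h and lower at 6 h. Rpp38, a subunit gene of the ribonuclease that trims transfer RNA precursors, was at 14.7 FPKM in FPP-1746 and 6.61 in the fusion at 3 h (log2 ratio -1.04, or -0.76 with a pseudocount of 5) and at 15.3 and 36.6 FPKM at 6 h (1.20), a difference of 2.25 between the times. The predicted gene Gm12603 was at 2.51 and 6.91 FPKM at 3 h (1.17) and at 6.21 and 2.30 FPKM at 6 h (-1.13), a difference of -2.30. With 1 averaged column per group and time, these differences were not tested.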

How the results depend on the processing

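Of the 146 named genes past 2-fold 31 fell short under at least 1 of the 10 alternatives run, 28 of them with a pseudocount of 5. None changed direction, but most alternatives could not have shown this. A change of pseudocount, filter, threshold or set of records keeps the sign of a gene's ratio or drops the gene. Only upper quartile scaling, quantile normalisation and the other reference could reverse a sign. The counts of 601 higher and 412 lower genes moved by over 1.5 times in at least 1 direction under 3 of the alternatives. With a pseudocount of 0.1 they were 737 and 657, with a pseudocount of 5 they were 361 and 155, and with a 1.5-fold threshold they were 1513 and 1422. Under the other 7 alternatives, which changed the filter, the scaling, the reference or the set of records, higher genes numbered 469 to 615 and lower genes 311 to 436, and higher genes were 56.9% to 61.3% of the calls. The medians of 3 lists changed sign: aminoacyl-tRNA synthetases (-0.15) and proteasome subunits (-0.15) under quantile normalisation, and interferon genes (-0.13) without shared loci. No paired analysis was possible because each group is 1 averaged column with no replicate of its own, and for the same reason leaving out single replicates was not run. Depth limits genes near 1 FPKM, for which 1 column rests on roughly 66.0 to 106 fragments for a 2000-base transcript.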
